A study of Mus musculus with 18 samples.

Results

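The mucus genes of intestinal goblet cells were described in mouse ileum across diet and intestinal *Ppargc1a* genotype. The members were 9 genes, *Muc2*, *Fcgbp*, *Clca1*, *Zg16*, *Tff3*, *Agr2*, *Spdef*, *Spink4* and *Retnlb*, of 37074 gene names on the array. They were taken by gene name from the scanner data, and the brightest of the probes for a gene stood for it. *Clca1* is the current name of the goblet chloride channel regulator formerly called *Clca3*, and it was matched through its RefSeq transcript, since 8 of the 9 names occurred on the array as listed. The members had 11 probes in all, 2 each for *Muc2* and *Fcgbp*, and all 9 passed the filter on dim probes, *Retnlb* through the floxed chow group alone.

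Goblet cells are secretory epithelial cells that fill their granules with mucin and release it to form the mucus layer between the epithelium and the gut contents. The gel-forming mucin Muc2 is folded and cross-linked in the endoplasmic reticulum, heavily O-glycosylated in the Golgi and packed for release, and several smaller proteins travel with it. The goblet cell fate follows from the transcription factors Atoh1, Gfi1 and Spdef, and type 2 cytokines can raise the output of the cells.

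RNA was measured on Agilent SurePrint G3 1-colour arrays in ileum cells released by chelation from C57BL6/J mice, with 1 array and 1 mouse per sample and 6 mice in each of 3 groups. The mice labelled iPGC1afl/fl CHOW (floxed chow), of the same age as the HFD groups, carried floxed alleles of *Ppargc1a*, which codes for the coactivator Pgc1α, without Cre, and ate standard chow over the same 8 weeks. The mice labelled iPGC1afl/fl HFD (floxed HFD) had the same genotype and ate, for 8 weeks from 8 weeks of age, a diet with 42% of its calories as fat and 0.2% cholesterol. The mice labelled iPGC1a-/- HFD carried in addition a Cre transgene under the villin promoter, active throughout the intestinal epithelium, to delete part of the floxed gene there, and ate the same diet. All mice were killed after a fast, at the same time of day, and iPGC1a-/- mice on chow were not analysed here. The diet comparison was floxed HFD against floxed chow and the genotype comparison was iPGC1a-/- HFD against floxed HFD. Both use the floxed HFD arrays.

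Between 56.3% and 62.3% of probes were well above background on each array, no spot was saturated, and each of 3 slides held 2 arrays of every group. The arrays labelled iPGC1a-/- did not have less *Ppargc1a* signal. The brighter of its 2 probes had a log2 normalized signal of 11.38 ± 0.07 (SD, n = 6) on floxed HFD arrays and of 11.67 ± 0.26 (SD, n = 6) on arrays labelled iPGC1a-/- (limma adjusted p = 0.572). Whether these probes lie in the deleted part of the gene was not examined, so the values do not check the genotype labels. Of ileum markers *Slc10a2*, the bile acid transporter of the distal small intestine, had a mean log2 signal of 13.08 ± 0.70 (SD, n = 6) on floxed chow. Of 6 large intestine genes, *Hoxb13*, *Hoxd12* and *Hoxd13* did not pass the filter on dim probes. The other 3 passed it, and the log2 of their summed signal ran from 8.18 to 8.65 on floxed chow. The ileum markers themselves moved with diet, as given below with the other markers.

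Because the results turn on probes inside the transcripts, the 60-base probe sequences that read 4 members are shown in lower case, 5′ to 3′, as the array design gives them. They are the brightest probes of *Spink4*, *Zg16* and *Fcgbp* and the dimmer, upstream probe of *Muc2*.
Spink4: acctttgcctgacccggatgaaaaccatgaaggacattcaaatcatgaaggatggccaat
Zg16: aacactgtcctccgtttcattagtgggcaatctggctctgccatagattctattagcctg
Fcgbp: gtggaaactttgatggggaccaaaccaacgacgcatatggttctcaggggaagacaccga
Muc2: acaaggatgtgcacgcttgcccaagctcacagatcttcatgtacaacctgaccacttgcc
On mm9, the build of the array files, the *Spink4* probe is placed at chr4:40876206-40878330, a span of 2125 bases for 60 bases of probe, so it crosses at least 1 intron and reads spliced RNA. The *Zg16* probe is at chr7:134193837-134193896, the *Fcgbp* probe at chr7:28905517-28905576 and the *Muc2* probe at chr7:148883009-148883068, each without a gap.

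The diet comparison asks how the mucus genes of control mice stood after 8 weeks of HFD. All 8 members other than *Retnlb*, which stood near background and had passed the filter through floxed chow alone, had lower mean signals on floxed HFD than on floxed chow, and 6 of them fell by the call used here, a limma adjusted p of 0.05 or lower with a fold change above 1.5. The 6 were *Agr2*, *Spink4*, *Zg16*, *Muc2*, *Fcgbp* and *Clca1*. Over all 21542 genes tested, 5.2% were called lower and 3.22% higher. The median log2 fold change was -0.73 over these 8 members, -0.68 with *Retnlb* and 0.0031 over all genes tested. Without the fold threshold, 8 of 9 members were lower at an adjusted p of 0.05, against 14.2% of all genes. In bulk samples, fewer goblet cells and less RNA per goblet cell cannot be told apart.

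**Figure D1:**
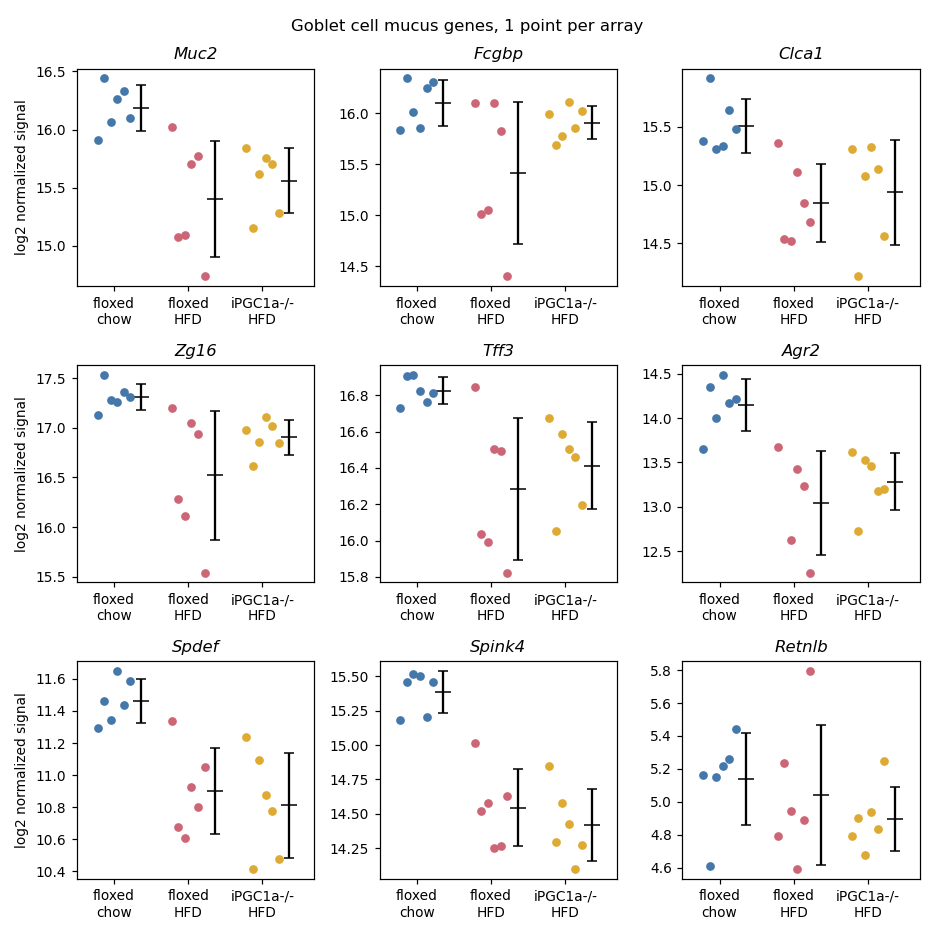
Log2 normalized signal of the 9 mucus genes (y axis, a separate scale for each gene) in the 3 groups (x axis), with 1 point per array in order of replicate number. Black marks and bars give the mean and SD of 6 arrays (5 for *Agr2* on floxed HFD), and the floxed HFD points spread more widely than the floxed chow points in every panel.

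*Muc2* codes for the gel-forming mucin that is the scaffold of intestinal mucus, and its brightest probe lies at chr7:148940536-148940595 on mm9. Its log2 normalized signal ran from 15.91 to 16.44 with a median of 16.18 on floxed chow, and from 14.74 to 16.02 with a median of 15.40 on floxed HFD. On this probe 5 of 6 floxed HFD arrays lay below every floxed chow array, and replicate 1 lay among them. The log2 fold change was -0.78 ± 0.18 (SE, n = 6 per group, limma adjusted p = 0.00374, exact two-sided permutation p = 0.00433), which leaves 58.1% of the chow level. The upstream *Muc2* probe shown above fell by 0.91 on the log2 scale with a limma adjusted p of 5.22e-05, and on it all 6 floxed HFD arrays lay below all 6 floxed chow arrays. By their brightest probes, 5.3% of all genes tested were separated in this way. No such share was computed for 5 of 6 arrays, here or for the members below.

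*Fcgbp* codes for a large mucus protein that is bound to Muc2. Its signal ran from 15.83 to 16.34 (median 16.13) on floxed chow and from 14.40 to 16.10 (median 15.44) on floxed HFD. The floxed HFD arrays fell into a low set of 3, replicates 2, 3 and 6, and 3 arrays in or next to the chow range. Diet moved it by a log2 fold change of -0.68 ± 0.22 (SE, n = 6 per group, limma adjusted p = 0.0316), and a two-sided exact permutation test over the same 12 mice had p = 0.0563. The call is the least stable of the 6, since it was lost when any 1 of floxed chow replicates 2, 5 or 6 or floxed HFD replicates 2, 3 or 6 was left out, with a log2 fold change of -0.47 without floxed HFD replicate 6. A second *Fcgbp* probe, at chr7:28873024-28873083, had a log2 fold change of -0.79 and a limma adjusted p of 0.0044.

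*Clca1* codes for a secreted metalloprotease of the mucus, once taken for a chloride channel, and its probe is at chr3:144667558-144667617. Its signal was 15.31 to 15.91 (median 15.43) on floxed chow and 14.52 to 15.36 (median 14.76) on floxed HFD. Again 5 of 6 floxed HFD arrays lay below all chow arrays. With diet the log2 fold change was -0.67 ± 0.18 (SE, n = 6 per group, limma adjusted p = 0.0116, exact permutation p = 0.00649). Without floxed chow replicate 2, which had the highest signal of its group, the fold change fell under the threshold.

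*Zg16* codes for a lectin of goblet cell granules that binds the cell wall of bacteria. Its signal was tight on floxed chow, from 17.13 to 17.53 (median 17.30), and wide on floxed HFD, from 15.54 to 17.20 (median 16.61). The SD was 0.13 on floxed chow and 0.65 on floxed HFD. Between the diets the log2 fold change was -0.79 ± 0.20 (SE, n = 6 per group, limma adjusted p = 0.0076, exact permutation p = 0.00433).

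*Tff3* codes for the trefoil peptide of goblet cells, a small protein of epithelial repair that is secreted with mucin. At chr17:31262279-31262338, its signal was 16.73 to 16.91 (median 16.82) on floxed chow and 15.82 to 16.85 (median 16.26) on floxed HFD. As for *Muc2*, 5 of 6 floxed HFD arrays were below all chow arrays, but the log2 fold change, -0.54 ± 0.14 (SE, n = 6 per group, limma adjusted p = 0.0095), did not reach 1.5-fold. *Tff3* was therefore not called.

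*Agr2* codes for a protein disulfide isomerase of the endoplasmic reticulum that Muc2 needs for its assembly, and it had the largest difference of the 9. Its probe, at chr12:36730506-36730565, gave 13.65 to 14.49 (median 14.19) on floxed chow and 12.26 to 13.67 (median 13.24) on floxed HFD. The spot was flagged as an outlier on floxed HFD replicate 2, so 5 arrays stood for that group in the fit. Its log2 fold change was -1.10 ± 0.22 (SE, n = 5 against 6, limma adjusted p = 0.00116, exact permutation p = 0.00866), which leaves 46.6% of the chow level. The call also held with the flagged spot kept.

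*Spdef* codes for the ETS-family transcription factor that drives goblet cell maturation. At chr17:27851401-27851460, its signal was 11.29 to 11.65 (median 11.45) on floxed chow and 10.61 to 11.34 (median 10.86) on floxed HFD. Its log2 fold change of -0.56 ± 0.14 (SE, n = 6 per group, limma adjusted p = 0.00556) was under 1.5-fold and not called, although 5 of 6 floxed HFD arrays lay below all chow arrays.

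*Spink4* codes for a small Kazal-type protein of goblet cells, named for its likeness to protease inhibitors. Its signal was 15.18 to 15.51 (median 15.46) on floxed chow and 14.25 to 15.01 (median 14.55) on floxed HFD. It was the single member whose brightest probe separated the groups fully, while 5.3% of all genes tested had every floxed HFD array below every floxed chow array. The log2 fold change was -0.84 ± 0.13 (SE, n = 6 per group, limma adjusted p = 8.75e-05), and the exact permutation p of 0.00216 is the smallest that 6 against 6 mice can give.

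*Retnlb* codes for RELMβ, a secreted antimicrobial protein that goblet cells make mainly in the colon or on induction by type 2 cytokines. Its probe, at chr16:48818874-48818933, was well above background on 5 of 6 floxed chow, 3 of 6 floxed HFD and 2 of 6 iPGC1a-/- HFD arrays. Its median signal before normalization was 23 to 47 units over all arrays, against a median local background of 17 to 23. With diet, *Retnlb* had a log2 fold change of -0.10 ± 0.16 (SE, n = 6 per group, limma adjusted p = 0.71). At this distance from background, a difference was not detectable.

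**Figure D2:**
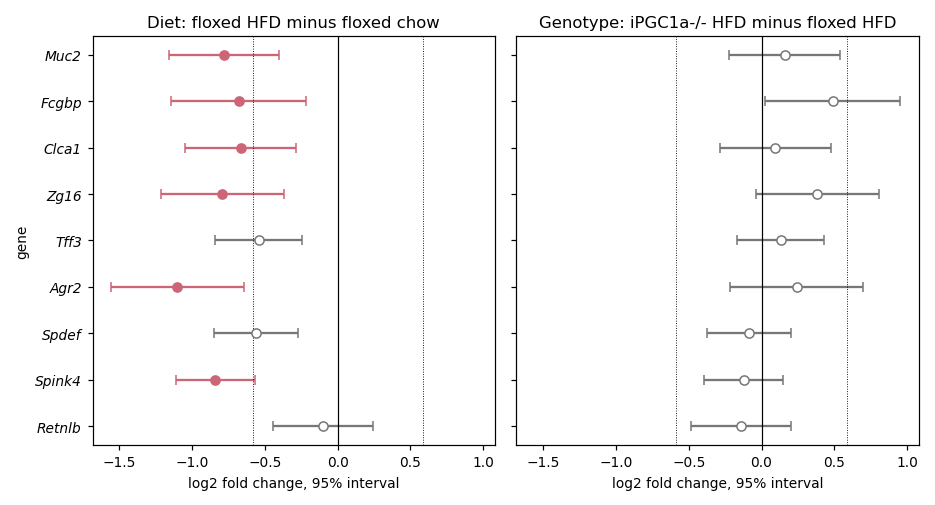
Log2 fold change of each mucus gene (x axis, points with 95% limma intervals) for diet (left) and genotype (right), with genes on the y axis. Dotted lines mark 1.5-fold, filled points passed the call, and the 6 filled points all lie in the diet panel between -1.10 and -0.67.

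Within slides, where 2 arrays of each diet could be set against each other, all 24 differences of the 8 members other than *Retnlb* lay below 0, and those of *Retnlb* were -0.09, -0.48 and 0.28. For *Muc2* the 3 within-slide log2 differences were -0.56, -0.66 and -1.13. For *Spink4* they were -0.95, -0.53 and -1.03. For *Zg16* they were -0.60, -0.68 and -1.10.

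The floxed HFD arrays differed among themselves, and most members ranked them alike. Taking the mean difference of the 8 bright members (all but *Retnlb*) from their floxed chow means, the 6 floxed HFD arrays stood at -0.17, -0.95, -1.04, -0.48, -0.59 and -1.22 for replicates 1 to 6. Replicate 1 was below the lowest floxed chow array for 1 of the 8 genes, *Spink4*, and replicates 3, 5 and 6 were below it for all 8. The floxed chow arrays ranged from -0.23 to 0.19. Without floxed HFD replicate 1, 8 of 9 members were called lower for diet. The low floxed HFD replicates 2, 3 and 6 had 56.3%, 56.8% and 57.0% of probes well above background, and median signals of 44, 41.5 and 39. Replicates 1, 4 and 5 had 60.6%, 61.7% and 59.6%, with a median of 52 each. Replicates 1 to 6 of iPGC1a-/- HFD had 56.7%, 58.6%, 58.9%, 60.4%, 62.3% and 58.3% of probes well above background. Their mean differences were -0.30, -0.97, -0.48, -0.42, -0.59 and -0.76 in the same order. The part of array or sample quality in this spread was not tested.

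**Figure D3:**
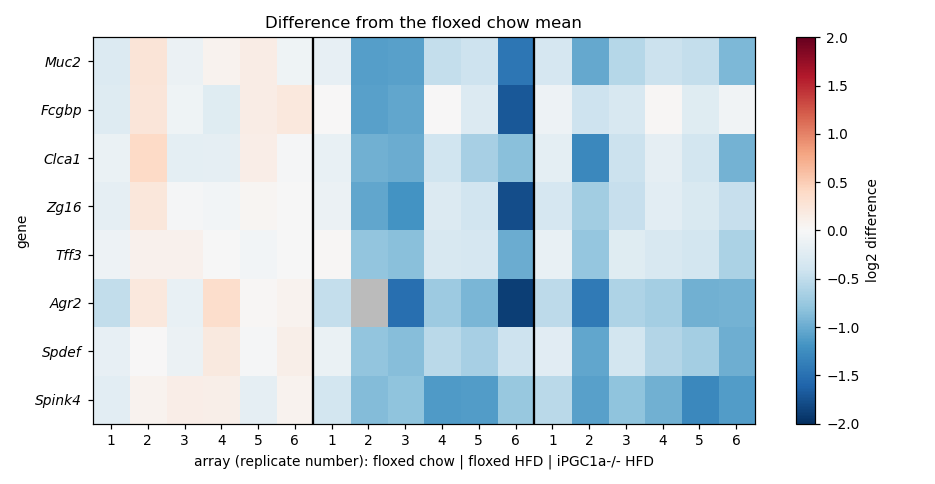
Log2 difference of 8 mucus genes (rows) from their floxed chow mean on each of the 18 arrays (columns, by group and replicate number), with blue for lower and grey for the *Agr2* spot left out. Floxed HFD replicate 1 resembles the chow arrays with a mean difference of -0.17, and replicate 6 is the lowest at -1.22, while *Spink4* is lowest on replicates 4 and 5.

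On the 6 floxed HFD arrays, Pearson's r between *Muc2* and *Tff3* was 0.99, and between *Fcgbp* and *Zg16* it was also 0.99. Over the 28 pairs of the 8 bright members, the median r was 0.82 on floxed HFD, 0.45 on floxed chow and 0.75 on iPGC1a-/- HFD arrays. *Spink4* followed the mucus structural genes less closely on floxed HFD, with r of -0.09 with *Fcgbp*, -0.04 with *Zg16*, 0.06 with *Muc2* and 0.31 with *Clca1*. *Spdef* lay between, with r of 0.34 with *Zg16*, 0.46 with *Muc2*, 0.58 with *Tff3*, 0.62 with *Spink4* and 0.82 with *Clca1*. On floxed HFD replicate 6, where *Muc2*, *Fcgbp*, *Zg16*, *Tff3* and *Agr2* had their lowest signals, *Spink4* at 14.63 had its second highest of the group and *Spdef* at 11.05 likewise. Those ranks hold after normalization. Before it, *Spink4* on that array, at 18831 units, was the lowest of the group, and *Spdef* was at 1573 in a range of 1222.5 to 2851. The r values and ranks are descriptions over 6 arrays of one RNA preparation each, in which all genes share the array and the cell makeup of the sample.

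The genotype comparison asks whether the mucus genes differed on HFD between arrays labelled iPGC1a-/- and floxed arrays. No member was called, against 0.135% of all genes tested (29 of 21542). By limma on the brightest probes, 1 of the 9 members had an unadjusted p under 0.05, *Fcgbp*, and exact two-sided permutation p-values ran from 0.149 to 0.673. The log2 fold changes ran from -0.14 to 0.49, 6 of them above 0 and 3 below, with a median of 0.13 against 0.0059 over all genes.

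For *Fcgbp*, the iPGC1a-/- HFD arrays gave 15.69 to 16.11 (median 15.92) and so lay above the 3 low floxed HFD arrays and around the other 3. Its log2 fold change was 0.49 ± 0.22 (SE, n = 6 per group, limma adjusted p = 0.505), with a 95% interval from 0.03 to 0.95. The second *Fcgbp* probe had 0.43 and an interval from 0.02 to 0.83 (limma unadjusted p = 0.0412, adjusted p = 0.506), with 5 iPGC1a-/- HFD arrays in the fit. *Zg16* had 16.61 to 17.10 (median 16.92) on iPGC1a-/- HFD, a log2 fold change of 0.38 and an interval from -0.04 to 0.81. *Agr2*, from 12.72 to 13.62 (median 13.33), had 0.24 and an interval from -0.22 to 0.70. In these 3 genes the interval reaches past 1.5-fold, so a difference of that size was not excluded.

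In the other 6 members the 95% interval of the brightest probe lay inside 1.5-fold in both directions. For *Retnlb* this interval does not exclude a larger difference, since its signal stood near background. *Muc2* gave 15.15 to 15.85 (median 15.66) on iPGC1a-/- HFD, with a log2 fold change of 0.16 and an interval from -0.22 to 0.54. Its dimmer, upstream probe had a log2 fold change of 0.31 with an interval from 0.03 to 0.59, which excludes 0 and reaches just past 1.5-fold (limma unadjusted p = 0.0295, adjusted p = 0.479). *Tff3* was 16.05 to 16.68 (median 16.48) with 0.13, and *Clca1* was 14.22 to 15.32 (median 15.11) with 0.10. *Spdef*, at 10.42 to 11.24 (median 10.83), had a log2 fold change of -0.09, whose sign turned when arrays were weighted or floxed HFD replicate 1 was left out. *Spink4*, at 14.10 to 14.85 (median 14.36), had -0.12, and *Retnlb*, at 4.68 to 5.25 (median 4.87), had -0.14 near background. In all 6 the 2 groups overlapped.

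Spread was also compared as a description. For *Zg16* the SD was 0.65 on floxed HFD and 0.17 on iPGC1a-/- HFD arrays, and for *Fcgbp* it was 0.70 and 0.16. For *Clca1* the order was the other way, with 0.33 on floxed HFD and 0.45 on iPGC1a-/- HFD. The mean difference of the 8 bright members from floxed chow ran from -0.97 in replicate 2 to -0.30 in replicate 1 of the iPGC1a-/- HFD arrays, a range that lies inside that of floxed HFD.

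Set against floxed chow, the iPGC1a-/- HFD arrays had 4 members called lower, *Spink4* (-0.96), *Agr2* (-0.86), *Spdef* (-0.65) and *Muc2* (-0.62), where 6.86% of all genes were called lower. *Fcgbp* had a log2 fold change of -0.19 there, against -0.68 for floxed HFD, and *Zg16* of -0.41, against -0.79. The 2 contrasts share the chow arrays, and the difference between them is the genotype comparison above, in which neither gene was called.

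Of 32 other goblet cell genes, taken as markers of the same cells, 31 were tested. With diet 11 fell and none rose, with a median log2 fold change of -0.44, while 5.2% of all genes were called lower. The 6 with the largest changes were *Klk1*, a kallikrein protease (-1.25), *Pla2g10*, a secreted phospholipase (-1.15), *Sval1* (-1.12), *Ttc39a* (-0.99), *Bace2*, an aspartyl protease (-0.86), and *Bcas1* (-0.82). Their limma adjusted p-values were 0.00608 or lower. Of the 31, 25 had log2 fold changes below 0 and 6 above, where the median over all genes was 0.0031. The 6 were *Ang4* (0.58, limma adjusted p = 0.0838), *Scin* (0.56, 0.00588), *Guca2a* (0.48, 0.000201), *Tspan13* (0.15), *Stard3nl* (0.12) and *Uap1* (0.02), and none reached the 1.5-fold threshold with an adjusted p of 0.05. Neither that list nor any below had a called gene in the genotype comparison.

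Of 12 other mucins and trefoil factors, 8 were tested, and *Muc4*, a membrane-bound mucin, fell by 1.77 on the log2 scale while no gene rose. With 5.2% of all genes called lower, 1 gene is not a result about the list. *Muc13*, the other membrane mucin with an adjusted p under 0.05, was at -0.53. *Muc5ac*, *Muc6* and *Tff1*, the secreted products typical of stomach, were at 0.12, 0.06 and 0.02, none of them called. Their mean log2 signals on floxed chow were 5.05, 5.38 and 5.04, near background like the 5.14 of *Retnlb*, so differences could be missed. The median of this list was 0.09.

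Of 32 genes of mucin O-glycosylation, 30 were tested. Against 5.2% of all genes called lower, 7 fell and none rose, with a median of -0.0090. The falls included *Gcnt1* (-2.31) and *Gcnt3* (-1.21), which branch the O-glycan core, *Galnt3* (-0.79) and *Galnt12* (-0.71), which start the chain, *St3gal1* (-0.81), which adds sialic acid, and *B3gnt7* (-0.75). *Gcnt1* went from a mean log2 signal of 7.87 ± 0.74 on floxed chow to 5.56 ± 0.25 on floxed HFD (SD, n = 6 each, limma adjusted p = 1.02e-06). That floxed HFD level, and the 5.27 of *B3gnt7*, stood near background, so the size of these falls is less certain.

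Of 25 regulators of the secretory lineage, 2 fell with diet and none rose, with a median of -0.32. That count is close to the 5.2% of all genes called lower and is not a result about the list. They were *Gfi1* (-1.32), a repressor that favours goblet and Paneth fates, and *Atoh1* (-0.72), the factor on which the whole secretory lineage rests. *Atoh1* had a mean log2 signal of 8.77 ± 0.41 on floxed chow and 8.05 ± 0.50 on floxed HFD (SD, n = 6 each, limma adjusted p = 0.0151). Of 28 genes for folding, release and hydration of mucus, *Qsox1* (-1.16), a sulfhydryl oxidase, and *Dnajc10* (-0.66), a disulfide reductase, fell, and *Ano1* (0.59), a calcium-activated chloride channel, rose. These counts too are close to the shares of all genes called, 5.2% lower and 3.22% higher.

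Of 18 genes of type 2 and IL-22 signals, 8 were tested and 1 was called, where 3.22% of all genes were called higher. *Il33*, the epithelial alarmin, rose by 0.88 on the log2 scale with diet (limma adjusted p = 0.00664), and the cytokines *Il4*, *Il5*, *Il25* and *Il22* did not pass the filter on dim probes. *Il13*, which induces *Retnlb* and *Clca1*, was at 0.10 and not called. Its mean log2 signal was 5.08 on floxed chow and 5.18 on floxed HFD, as near background as *Retnlb*, so a difference could be missed.

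**Figure D4:**
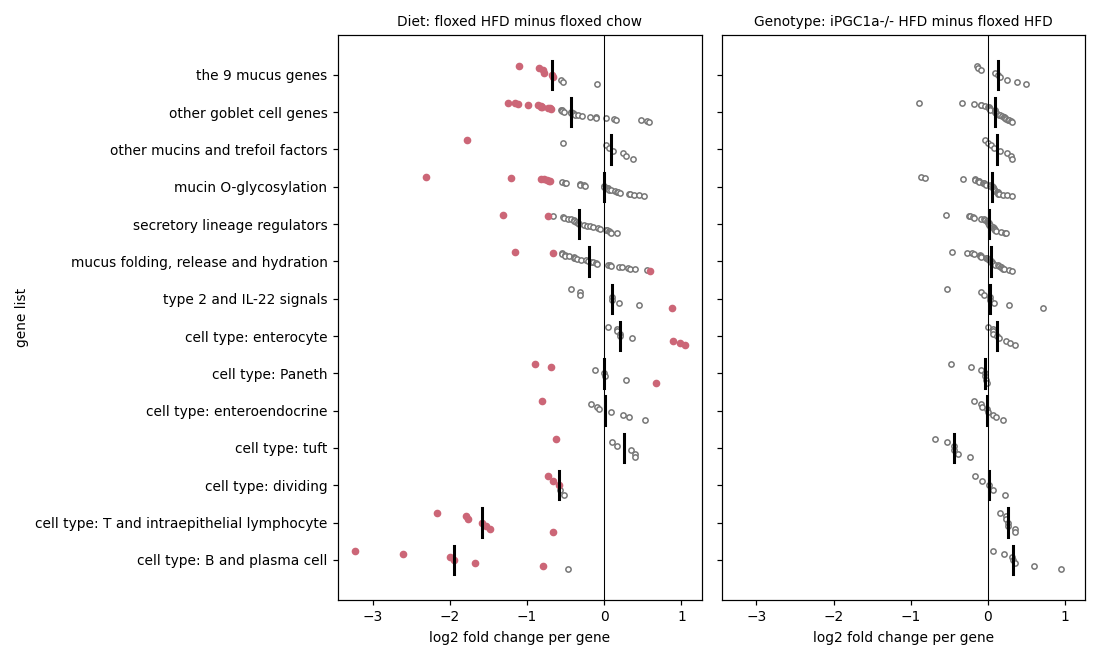
Log2 fold change per gene (x axis) in 14 gene lists (y axis) for diet (left) and genotype (right), 1 point per gene tested. Filled points passed the call, vertical bars are list medians, and the list of 9 mucus genes has medians of -0.68 and 0.13.

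Markers of other cells moved with diet as well, and their part in the mucus gene result was not tested. Over all genes tested, 5.2% were called lower and 3.22% higher. All 7 T and intraepithelial lymphocyte markers fell, with a median log2 fold change of -1.59. Their summed log2 level was 13.74 to 15.59 on floxed chow, 12.51 to 13.34 on floxed HFD and 12.88 to 13.64 on iPGC1a-/- HFD. Of 7 B and plasma cell markers 6 fell, with a median of -1.95, and their summed log2 level was 10.80 to 12.19 on floxed chow, 8.15 to 10.45 on floxed HFD and 9.04 to 10.09 on iPGC1a-/- HFD. Of 5 markers of dividing cells 3 fell, with a median of -0.59 and summed levels of 13.13 to 13.93, 12.34 to 13.17 and 12.43 to 12.83 in the same order.

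Against 3.22% of all genes called higher, 3 of 9 enterocyte markers rose, *Lct* (1.05), *Apoa4* (0.98) and *Alpi* (0.90), with a median of 0.20. The summed log2 level of these markers was 19.49 to 19.84 on floxed chow and 19.88 to 20.10 on floxed HFD, and the groups did not overlap. Among the other secretory cells, 2 of 7 Paneth markers tested fell and 1 rose (median 0.0015), 1 of 8 enteroendocrine markers fell, *Chga* (-0.80), and 1 of 6 tuft markers tested fell, *Trpm5* (-0.63). With 5.2% of all genes called lower, calls of 1 or 2 genes in such short lists are not results about the lists. Of 5 ileum markers, the bile acid transporters *Slc10a2* (-1.07) and *Slc51b* (-0.94) fell and *Fgf15*, a hormone induced by bile acids (2.47), rose, while *Fabp6* (-0.11) and *Slc51a* (-0.06) were not called. Their summed log2 level was 17.40 to 18.41 on floxed chow, 17.38 to 17.88 on floxed HFD and 17.11 to 17.92 on iPGC1a-/- HFD. For comparison, the summed log2 level of the 9 mucus genes was 18.83 to 19.23 on floxed chow, 17.70 to 18.92 on floxed HFD and 18.22 to 18.76 on iPGC1a-/- HFD.

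The genes whose signals followed the mean standardized signal of the 9 members most closely over the 18 arrays, among 21462 other genes measured on all arrays, were *Ttc39a* (Pearson's r = 0.99), an unnamed transcript (0.98), *Ica1* (0.98), *Kcnk6* (0.97), *Pla2g10* (0.97), *Nucb2* (0.97), *Slc17a9* (0.96) and *Rap1gap* (0.95). *Ttc39a* and *Pla2g10* were also in the list of other goblet cell genes. These values describe 18 arrays in which diet, array and cell makeup are shared by all genes.

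Since most members moved together, the 250 bases before the transcription start were searched for motifs in the 4 members that the RefSeq promoter table of GRCm38.p6 holds, *Muc2*, *Fcgbp*, *Agr2* and *Spdef*. Both strands were searched for the core promoter box, spelled TATAAA, and for an E-box of the class that Atoh1 binds, spelled CAGCTG. The site of ETS factors such as Spdef was spelled CCGGAT, that of forkhead factors TGTTTAC and that of Cdx2 TTTATG. The promoters of *Muc2* (chr7:141690090-141690339, + strand) and *Fcgbp* (chr7:28070986-28071235, + strand) are shown because both hold the E-box, with matches in capitals.
Muc2: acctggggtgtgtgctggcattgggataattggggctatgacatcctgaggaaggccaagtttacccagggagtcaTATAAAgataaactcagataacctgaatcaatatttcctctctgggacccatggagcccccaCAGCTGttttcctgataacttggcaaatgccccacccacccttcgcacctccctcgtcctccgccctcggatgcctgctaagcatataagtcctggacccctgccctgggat
Fcgbp: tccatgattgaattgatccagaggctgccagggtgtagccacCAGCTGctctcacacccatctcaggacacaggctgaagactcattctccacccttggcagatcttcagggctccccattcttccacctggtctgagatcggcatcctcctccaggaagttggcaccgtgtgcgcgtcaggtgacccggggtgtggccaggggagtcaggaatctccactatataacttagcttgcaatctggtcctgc
CAGCTG occurred once in each of these sequences and in 13% of the 32851 promoters of the table. TATAAA occurred in *Muc2* (12.4% of all promoters), and TTTATG in *Agr2* and *Spdef* (10.8%). CCGGAT (4.94%) and TGTTTAC (3.17%) were in none of the 4 windows, and no matches overlapped. *Clca1*, *Zg16*, *Tff3*, *Spink4* and *Retnlb* were not searched.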

How the data were processed

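The authors extracted RNA from ileum cells, hybridised it to 1-colour arrays and deposited each scan as intensity values per spot from Agilent Feature Extraction 10.10.1.1, before any scaling across arrays. A second deposited table, on the log2 scale, covers 33095 probes, and for it the methods corrected washing bath and labelling batches which are not named in the labels used here. Columns of values without a sample numbered 0.

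Without control spots and those flagged as outliers (46 to 153 on an array), and with repeated spots averaged, there were 56605 probes. A probe was kept if it stood well above background on 5 or more of the 6 arrays of any group (32726 probes, 21542 genes). Normalization of the log2 median signals followed qsmooth (smooth quantile normalization, rewritten here, window 0.05) in R 4.3.3, and the values were tested with limma 3.58.1 in a single model of 3 groups, with Benjamini-Hochberg adjustment over all probes kept. Calls needed, on the brightest probe, a change of over 1.5-fold with an adjusted p at or under 0.05. Exact two-sided permutation tests over mice (924 divisions) used scipy 1.17.1, and their p-values are not adjusted. On simulated data with 200 changed probes, the diet fit recovered 82.4% of changes of 0.75 on the log2 scale and 100% of changes of 2. Precision is limited by the number of arrays, with a median SE of 0.104 for a log2 fold change over all probes kept. The brightest probes of the members had larger diet SEs, from 0.13 (*Spink4*) to 0.22 (*Fcgbp*). The simulated recovery is over all probes and is not a rate for the members. Coordinates are those of the array files (mm9). GRCm38.p6 tables gave names and promoters, and matplotlib 3.10.9 the plots.

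Named genes were the 9 members, the called genes of each other list (up to 6 per list and comparison, by size of change), the 8 genes with the highest r with the members' mean standardized signal and *Ppargc1a*. Other genes named beside them were picked after their values were seen. The members and lists were chosen with earlier results of these data known. Markers of crypt stem cells (0 of 5 called for diet), macrophages and dendritic cells (1 of 4), stroma and vessels (0 of 5), the ileum (3 of 5), the large intestine (0 of 3) and resistin-like genes (0 of 2) were also tabulated. Alternatives covered signal, normalization, filter, slide, replicate block, variance model, probe choice, the authors' log2 table and each array left out, and 1, keeping flagged spots, was chosen after seeing the data.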

Additional observations from a re-analysis of the deposited data

Results flagged for a closer look

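One of 27 group-by-gene sets of values held an array far from the others. On floxed chow replicate 2, *Retnlb* had a log2 normalized signal of 4.61, the nearest of the other arrays had 5.15, and this gap made up 0.648 of the range of the group. Chance flags about 1 in 20 such groups. The spot was not well above background on that array, and no explanation was tested.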

How the results depend on the processing

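The count of members called for diet was 6 in the reported analysis, all lower, and stayed between 4 and 8 under 15 other settings and between 4 and 8 with 1 array left out. It was 4 with Agilent's processed signal scaled to the 75th percentile, where *Clca1* and *Fcgbp* were lost, and 4 without floxed chow replicate 2. It was 8 without the fold threshold or without floxed HFD replicate 1, and 5 of 7 with the strict filter, which dropped *Agr2* and *Retnlb*. *Muc2*, *Zg16* and *Spink4* were called lower under every setting and with every array left out, and so was *Agr2* wherever it was tested. The genotype count was 0 of 9 throughout.

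The count against floxed chow for iPGC1a-/- HFD, 4, went to 2 with array weights and ranged from 2 to 5 with 1 array left out, the lowest without iPGC1a-/- HFD replicate 2 or 6. Over all genes, 1815 were called for diet and 29 for genotype. Without the fold threshold these counts were 5294 and 49, and with 1 array left out they ranged from 1632 to 2016 and from 19 to 40. The cause was not tested. The log2 fold change of *Spdef* with genotype turned from -0.09 to 0.018 with array weights and ranged from -0.17 to 0.0081 with 1 array left out, the latter without floxed HFD replicate 1. Scaling the median signal to the 75th percentile moved the split of diet calls from 694 higher and 1121 lower to 884 higher and 938 lower, and the median of all genes to 0.08.

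Whether the replicate numbers pair the samples was not settled. Correlations of deviations between same-numbered floxed chow and floxed HFD arrays ran from -0.13 to 0.28, and 4 of 6 arrays correlated best with their own number. Between floxed HFD and iPGC1a-/- HFD they ran from -0.19 to 0.33, with 3 of 6. Between floxed chow and iPGC1a-/- HFD they ran from -0.22 to 0.35, with 1 of 6. With the replicate number as a block, 6 members were called for diet and 0 for genotype, and 1828 and 25 of all genes. Signal over background limits *Retnlb* alone among the members.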
